A study of Rattus norvegicus with 15 samples.

Results

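Lcn2 and a pair of annotated features that are high at the same times were followed in whole blood of rats after deep venous thrombosis, a clot in a deep vein, had been modelled. The 3 features are ENSRNOG00000013973 (Lcn2), ENSRNOG00000013280 and ENSRNOG00000009263, out of 17599 in the deposited table. They were chosen from the measured values because they are low in sham, at 1 h and at 72 h and high at 6 h and 12 h, so this shape is a description and not a finding, and no test of it is given. The symbol Lcn2 came with the choice of the first ID. Neither the table nor the reference used here pairs IDs with symbols, so that pairing was not checked and the other members are given by ID alone.

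The animals were Sprague-Dawley rats, an outbred stock, all male, 6 to 8 weeks old and weighing 250 to 300 g. Blood was taken from sham rats, labelled 0 h, and from rats at 1 h, 6 h, 12 h or 72 h after modelling, with 3 libraries in each of the 5 groups. No genetic change is named for any group, and neither the treatment of the vein nor that of the sham rats is described in the labels. The 9 libraries of sham, 1 h and 72 h are titled with run label A&B, the 6 libraries of 6 h and 12 h with run label C. The groups in which the members are high are thus exactly those of label C, and time and run label cannot be told apart in that rise. The labels number replicates without naming animals, so the spread behind each p-value is that between these samples and may be technical.

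Lcn2 encodes lipocalin 2, also called neutrophil gelatinase-associated lipocalin, a small secreted protein that binds bacterial siderophores and so withholds iron from bacteria. It is stored in the specific granules of neutrophils, where it can be linked to the gelatinase MMP9, and its transcript is made while neutrophils mature in the marrow. It is also an acute-phase protein, induced in liver and epithelia by interleukin-1, interleukin-6 and NF-kB. In whole blood, more cells of a type and more RNA per cell cannot be told apart. Markers of neutrophils, monocytes, lymphocytes, platelets and erythroid cells could not be matched to rows, because 0 IDs had a symbol in the reference, so the labelled tissue was not checked against them and their part in the rise was not tested.

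The promoter of Lcn2 is shown because the NF-kB and C/EBP families are the textbook regulators of this gene. It is taken from RefSeq by symbol, on the minus strand of chr3:36081731-36082030 of the GRCr8 build, and runs from 250 bases before the transcription start to 50 after it. This build differs from that of the deposited table. Capitals mark the matches to the motifs, which were chosen with this sequence in view and searched on both strands.
Lcn2 promoter: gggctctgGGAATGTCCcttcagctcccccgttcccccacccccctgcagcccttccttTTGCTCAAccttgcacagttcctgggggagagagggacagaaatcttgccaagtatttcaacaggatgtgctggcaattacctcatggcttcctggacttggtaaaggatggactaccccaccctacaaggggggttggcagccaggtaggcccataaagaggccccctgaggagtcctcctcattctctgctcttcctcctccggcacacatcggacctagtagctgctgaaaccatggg
The NF-kB-like letters GGAANNTCC matched 1 time, as GGAATGTCC, from position -242 relative to the transcription start, and 4.09% of 33469 promoters of the same length held a match. The C/EBP-like letters TTGCNNAA matched 1 time, as TTGCTCAA, and 10.6% of promoters held a match. The STAT-like letters TTCNNNGAA are not in this window, while 8.87% of promoters held them. A match is a run of letters and not a site shown to be bound.

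The libraries held 29.2 to 43.3 M reads (mega-reads), recovered as whole numbers from the deposited values, of which 5 dominant features took 79.3 to 85.1%. The deposited unit is a normalised read count, that is reads divided by a factor for each library. Its extremes were 0.584 (12 h replicate 2) and 2.67 (12 h replicate 3), and these libraries therefore stand apart on the deposited scale. Each member is also given in RPM, here its reads per mega-read outside the 5 dominant features, a scale free of that factor. All 3 members were among the 11117 features tested, those reaching 10 or more in 3 or more libraries.

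Lcn2 was barely present in sham blood and became a well-counted transcript by 6 h. Its normalised read counts in sham replicates 1, 2 and 3 were 25.9, 46.9 and 9.05, from 14 to 60 reads. At 1 h they were 26.5, 1.94 and 6.58, from 2 to 20 reads, so that its lowest values lie at 1 h. The 6 h libraries had 1177, 184 and 461, and the 12 h libraries 1340.4, 2464 and 344. At 72 h it was back in the low range, with 14.5, 19.1 and 20.7, from 11 to 30 reads. These lay within 1.43-fold, the tightest group of the 5 on this scale. In RPM they lay within 2.14-fold, near the 2.18-fold of 12 h. The sham, 1 h and 72 h means were 27.3 ± 18.9, 11.7 ± 13.0 and 18.1 ± 3.21, against 607 ± 512 at 6 h and 1383 ± 1061 at 12 h (SD, n = 3). The mean was 22.3 times that of sham at 6 h and 50.7 times at 12 h. In order from high to low the groups ran 12 h, 6 h, sham, 72 h and 1 h. The ranges of 12 h and 6 h overlapped, as did those of the last 3 groups with each other, and the gap lay between 6 h and sham. The lowest label C library, 6 h replicate 2, was 3.93 times the highest library of label A&B, sham replicate 2.

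ENSRNOG00000013280 had the smallest rise of the members. Its normalised read counts were 29.9, 123 and 50.4 in sham, 13.2, 19.4 and 28.2 at 1 h, and 13.2, 35.7 and 28.9 at 72 h. They were 256, 347 and 763 at 6 h and 732, 1593 and 452 at 12 h. All 3 values at 1 h lay below all 3 sham values, as was so for 11.3% of features tested, while those of 72 h overlapped sham. Sham replicate 2 was the highest library of label A&B, and 6 h replicate 1, the lowest of label C, was only 2.08 times as high. The sham, 1 h and 72 h means were 67.9 ± 49.1, 20.3 ± 7.51 and 25.9 ± 11.5, against 455 ± 270.3 at 6 h and 926 ± 595 at 12 h (SD, n = 3). The 6 h mean was 6.70 times and the 12 h mean 13.6 times that of sham. The order of the groups was the same as for Lcn2, with overlap between 12 h and 6 h and between 72 h and each of sham and 1 h.

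ENSRNOG00000009263 was uneven in the groups described as low. Its sham libraries had normalised read counts of 208, 71.1 and 79.5, and the 1 h libraries 180.1, 167 and 653. At 72 h replicates 1 and 3 had 742 each, from 564 and 539 reads, while replicate 2 had 17.8, from 28 reads, so the highest and the lowest values of label A&B both lie at 72 h, 41.6-fold apart. A single level at 72 h therefore does not describe this feature. It reached 3889, 8964 and 1271 at 6 h and 5295, 11263 and 1581 at 12 h. The sham, 1 h and 72 h means were 119.6 ± 76.9, 333 ± 277 and 501 ± 418, against 4708 ± 3912 at 6 h and 6046 ± 4884 at 12 h (SD, n = 3). The mean was 39.4 times that of sham at 6 h and 50.5 times at 12 h. From high to low the order was 12 h, 6 h, 72 h, 1 h and sham, so that sham was the lowest group here and the highest of label A&B for Lcn2, but the 3 low groups overlapped for both. The margin over the low groups was the narrowest of the members, 1.71-fold between 6 h replicate 3 and 72 h replicate 1.

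**Figure D1:**
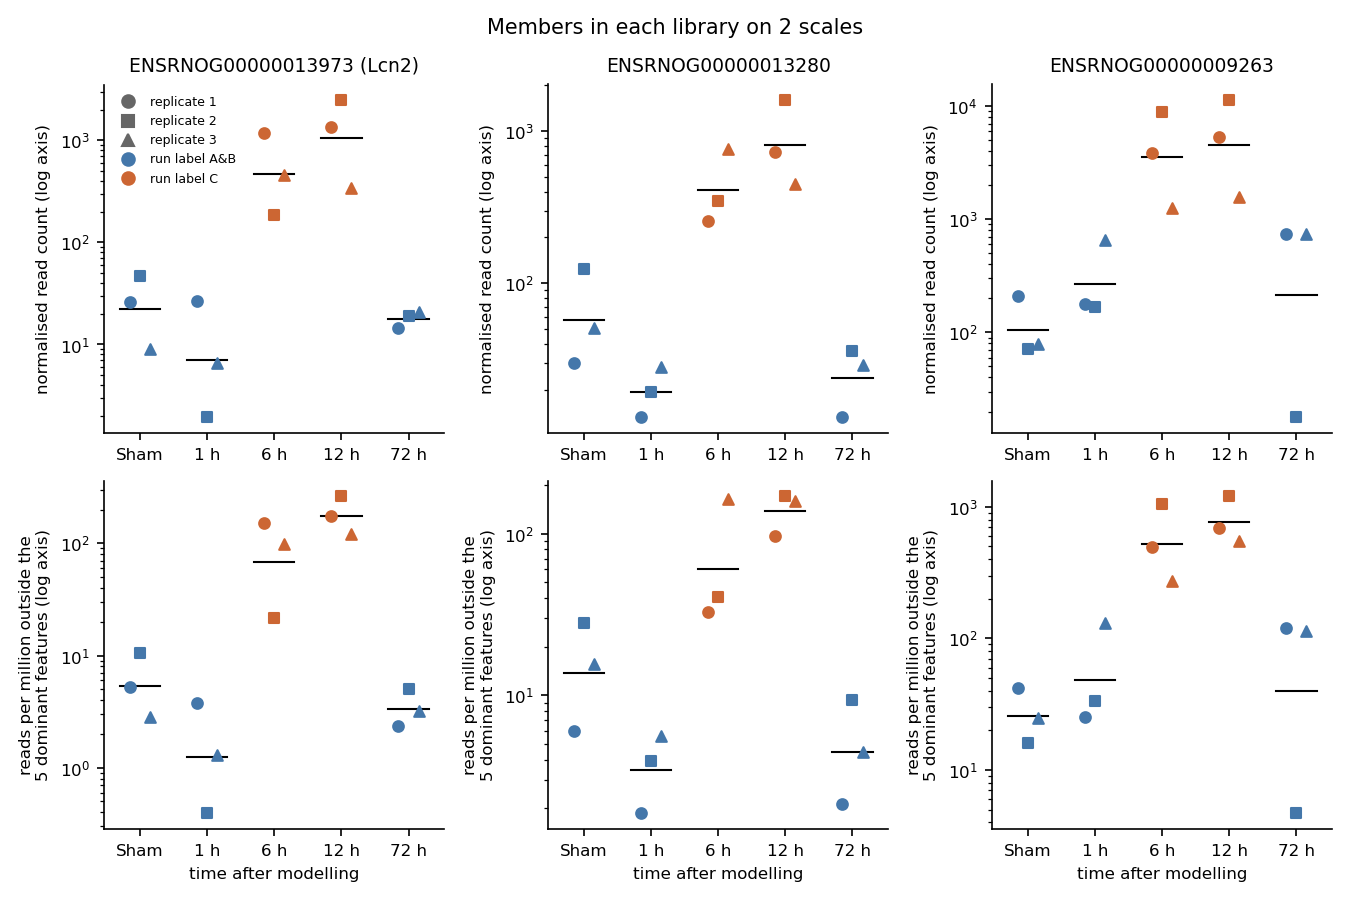
Each member in each of 15 libraries by group, as normalised read count (top) and as RPM outside the 5 dominant features (bottom), both on log axes; black bars are geometric means of 3 libraries, marker shape gives the replicate and colour the run label. Every 6 h and 12 h library lies above every other library for all 3 members, and the 72 h values of ENSRNOG00000009263 split into 742, 742 and 17.8.

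In all 3 members every 6 h and 12 h library lay above each of the other 9, a pattern held by 48 of the 11117 features tested (0.432%). Since the members were chosen for it, nothing is read from that count, nor from the ranks that follow, which rest on the same difference. By the mean log2 difference between these 6 and the other 9 libraries, Lcn2 ranked first among the features tested with 5.49, ENSRNOG00000009263 ranked 4 with 4.44 and ENSRNOG00000013280 ranked 5 with 4.22. Among the 48 they ranked 1, 2 and 3. Fitted log2 differences from sham, given without a test, were 4.31 at 6 h and 5.48 at 12 h for Lcn2 (SE 0.87). For ENSRNOG00000013280 they were 2.81 and 3.80 (SE 0.56). For ENSRNOG00000009263 they were 5.05 and 5.42, with the widest error (SE 1.27).

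On the RPM scale the rise was smaller but kept its shape. Lcn2 had 6.22 ± 3.99 RPM in sham, 1.81 ± 1.73 at 1 h and 3.52 ± 1.37 at 72 h, against 90.3 ± 65.0 at 6 h and 186 ± 71.5 at 12 h (SD, n = 3), so that the means at 6 h and 12 h were 14.5 and 29.9 times that of sham. For ENSRNOG00000013280 the ratios were 4.76 and 8.53. ENSRNOG00000009263 had 27.6 ± 13.2 RPM in sham, 607 ± 401 at 6 h and 816 ± 339 at 12 h (SD, n = 3). On this scale the median of all features tested lay at -0.61 log2 units from sham at 6 h and at -0.44 at 12 h. Relative to that median Lcn2 was 4.04 log2 units above sham at 6 h and 5.21 at 12 h. Every 6 h and 12 h library still lay above every sham, 1 h and 72 h library, the pattern for which the members were chosen. How many features tested hold it in RPM was not counted. The narrowest margin was 1.18-fold, between 6 h replicate 1 and sham replicate 2 for ENSRNOG00000013280.

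The change of scale acted differently on the 2 high groups. At 12 h the highest Lcn2 library was 7.17 times the lowest in normalised read counts and 2.18 times in RPM. For ENSRNOG00000009263 the same spread went from 7.12 to 2.17 and for ENSRNOG00000013280 from 3.52 to 1.77. At 6 h the spread did not shrink for Lcn2, being 6.39-fold in normalised read counts and 6.99-fold in RPM, nor for ENSRNOG00000013280, with 2.98-fold and 4.96-fold. For ENSRNOG00000009263 it went from 7.05-fold to 3.87-fold. The differences between 12 h libraries thus moved with the library factors, which span the whole range of the study in this group.

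All 3 members were high in each 6 h library, but they differed in which of these libraries was the highest. Lcn2 was highest in 6 h replicate 1 and lowest in replicate 2, ENSRNOG00000013280 was highest in replicate 3 and lowest in replicate 1, and ENSRNOG00000009263 was highest in replicate 2 and lowest in replicate 3. This order was the same on both scales, and each library was thus the highest for 1 member and the lowest for another. At 12 h, replicate 2 was the highest for all 3 members on both scales, and on the deposited scale replicate 3 was the lowest for all 3. In RPM replicate 1 was the lowest for ENSRNOG00000013280.

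The ratio of reads between members within a library does not depend on how the library was scaled. Gene lengths enter each ratio as a constant, so only its change between libraries is read here. Reads of ENSRNOG00000009263 per read of Lcn2 were 3.95, 4.57 and 4.60 in the 12 h libraries, with 95% counting intervals (exact Clopper-Pearson, covering counting error only) of 3.69 to 4.23, 4.32 to 4.84 and 4.28 to 4.95. At 6 h the same ratio was 3.31 in replicate 1 and 2.76 in replicate 3 but 48.7 in replicate 2, with an interval of 41.7 to 57.2. The ratio was thus within 1.16-fold over the 12 h libraries and spread over 17.7-fold at 6 h. In the low groups it ran from 1.52 to 8.79 in sham, from 6.80 to 99.3 at 1 h and from 0.933 to 51.3 at 72 h. The value of 86.0 in 1 h replicate 2 rests on 2 Lcn2 reads and has an interval of 23.4 to 716.

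Reads of ENSRNOG00000013280 per read of Lcn2 were 0.546, 0.647 and 1.32 at 12 h and 0.218, 1.88 and 1.65 at 6 h. The counting interval of 6 h replicate 1, from 0.185 to 0.256, lay below those of the other 6 h and 12 h libraries. In sham the ratio was between 1.15 and 5.57 and at 72 h between 0.909 and 1.87, so that these groups overlapped with 6 h and 12 h.

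**Figure D2:**
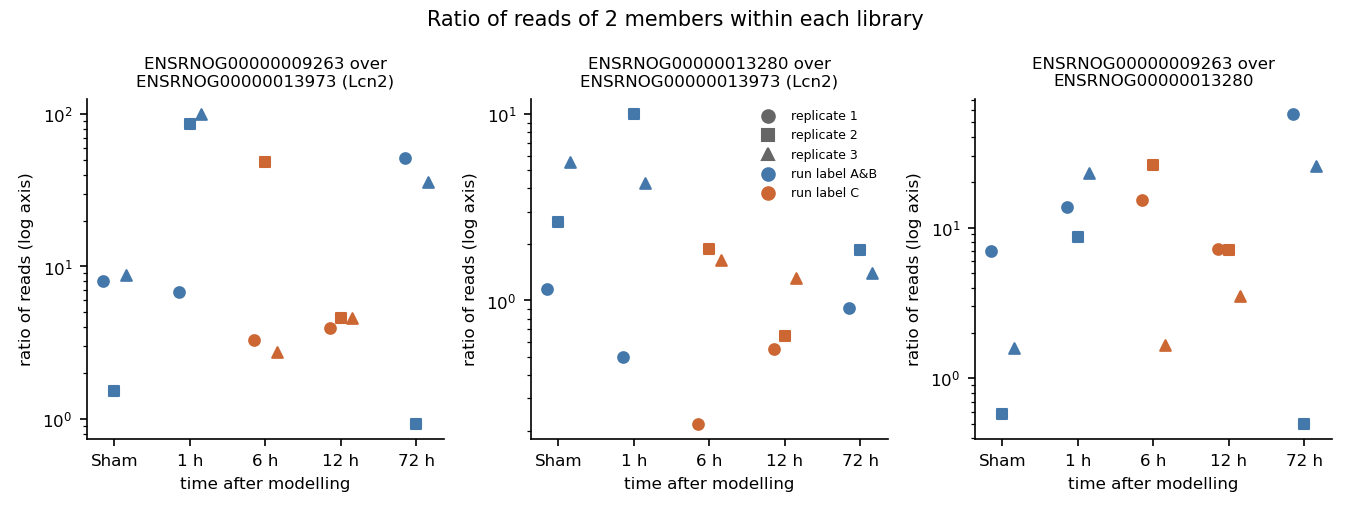
Ratio of reads of 1 member over another within each library, by group, on log axes; marker shape gives the replicate and colour the run label. The 12 h libraries lie close together for ENSRNOG00000009263 over Lcn2 (3.95 to 4.60), while 6 h replicate 2 lies at 48.7 and the 72 h libraries spread from 0.933 to 51.3.

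The members were chosen for high groups above low groups, and the comparisons left are those within the high groups and within the low groups. These are not free of the choice. Asking for low values in every low group and high values in both high groups can favour small differences inside each set. A lack of a call there is therefore not independent of the choice. These comparisons were fitted with limma over all features tested, and each adjusted p is a Benjamini-Hochberg value from that fit. Between 12 h and 6 h, which share run label C, Lcn2 differed by 1.17 log2 units (95% interval -0.69 to 3.02, limma adjusted p = 0.990). ENSRNOG00000013280 differed by 0.98 (-0.21 to 2.18, limma adjusted p = 0.990) and ENSRNOG00000009263 by 0.36 (-2.39 to 3.11, limma adjusted p = 0.990). None of the 3 passed, and 0% of the features tested were called by limma (0 of 11117). Before adjustment 423 had p under 0.05 in limma and 368 in edgeR, which called 0 as well, and DESeq2 called 15. The intervals are wide enough that an Lcn2 level 2.24 times as high at 12 h as at 6 h, the fitted value, could not be told from no difference. Each interval rests on a spread shared by all groups of the fit, not on the 6 h and 12 h libraries alone. The SE of ENSRNOG00000009263 was 1.27, but 0.77 without 72 h replicate 2 and 0.93 in the fit within label C. With 1 library left out, Lcn2 ranged from 0.50 (without 6 h replicate 2) to 1.97 (without 12 h replicate 3). ENSRNOG00000013280 ranged from 0.49 (without 12 h replicate 2) to 1.44 (without 6 h replicate 3), and ENSRNOG00000009263 from -0.38 (without 6 h replicate 3) to 1.13 (without 12 h replicate 3), with -0.29 when replicate 2 of 12 h was left out.

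Within label A&B, the log2 difference of Lcn2 between 1 h and sham was -1.47 (SE 0.87, limma adjusted p = 0.773), and the ranges overlapped. For ENSRNOG00000013280 it was -1.51 (95% interval -2.71 to -0.32, limma adjusted p = 0.513). Its groups did not overlap, as was so for 11.3% of features tested with sham above 1 h. For ENSRNOG00000009263 the fitted difference had the other sign, 1.34 log2 units higher at 1 h (SE 1.27, limma adjusted p = 0.881). None of the members passed, while 0.135% of features tested did. With 1 library left out, Lcn2 ranged from -2.32 (without 1 h replicate 1) to -0.70 (without 1 h replicate 2), ENSRNOG00000013280 from -1.97 (without sham replicate 1) to -0.97 (without sham replicate 2), and ENSRNOG00000009263 from 0.71 (without 1 h replicate 3) to 1.83 (without sham replicate 1). These 3 differences share the sham libraries with those at 72 h.

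Between 72 h and sham the log2 differences were -0.31 for Lcn2 (limma adjusted p = 0.957), -1.22 for ENSRNOG00000013280 (95% interval -2.42 to -0.03, limma adjusted p = 0.675) and 1.03 for ENSRNOG00000009263 (limma adjusted p = 0.882). No member passed, and limma called 0% of features and edgeR 0, with 806 and 738 under 0.05 before adjustment, while DESeq2 called 29. The difference of ENSRNOG00000009263 was 2.80 without 72 h replicate 2 (limma adjusted p = 0.246), 0.15 without 72 h replicate 1 or without replicate 3, 2.03 in edgeR, 2.07 in DESeq2 and 0.27 with the library factor as a covariate. That of ENSRNOG00000013280 ranged from -1.68 (without sham replicate 1) to -0.68 (without sham replicate 2), and that of Lcn2 from -0.93 (without sham replicate 3) to 0.20 (without sham replicate 2). Between 72 h and 1 h they were 1.15 for Lcn2 (SE 0.87, limma adjusted p = 0.744), 0.29 for ENSRNOG00000013280 (limma adjusted p = 0.932) and -0.31 for ENSRNOG00000009263 (limma adjusted p = 0.980), and 0.018% of features were called. The last of these differences rests on single libraries: it turned to 1.46 without 72 h replicate 2 and to 0.32 when 1 h replicate 3 was left out, and it was -1.20 when replicate 1 of 72 h was. Lcn2 ranged from 0.39 (without 1 h replicate 2) to 2.00 (without 1 h replicate 1), and ENSRNOG00000013280 from 0.014 (without 72 h replicate 2) to 0.70 (without 72 h replicate 1).

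**Figure D3:**
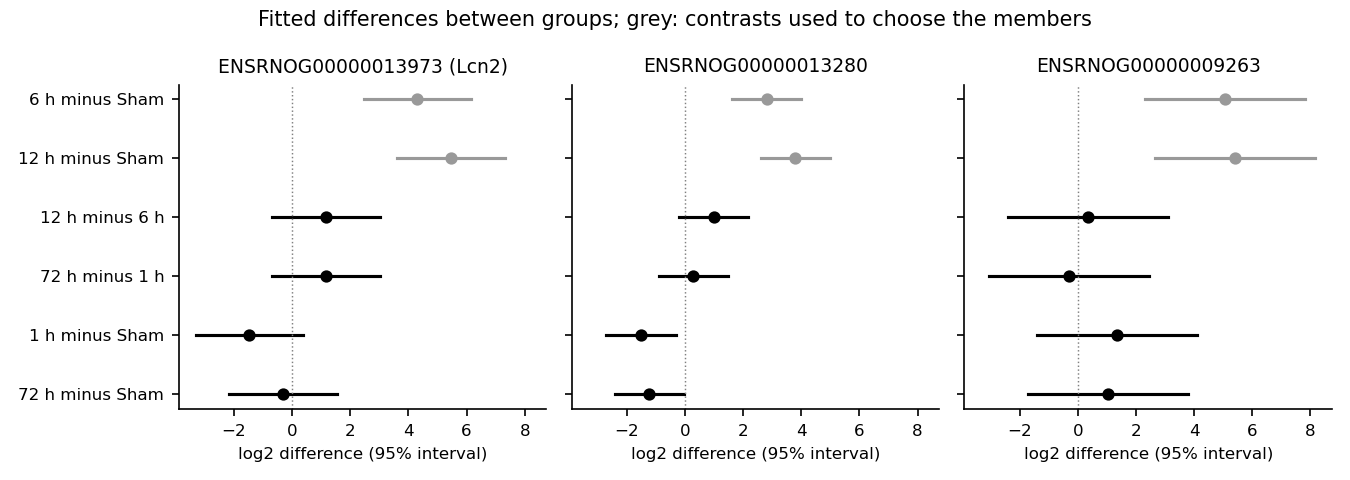
Fitted log2 differences between groups for each member, with 95% intervals from limma. Grey marks the contrasts of 6 h and 12 h with sham, which were used to choose the members. Black marks those within the high or within the low groups. The black intervals include 0 except those of ENSRNOG00000013280 at 1 h and 72 h against sham, which did not pass after adjustment over 11117 features.

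Variation between libraries was then compared within each run label, since the pooled libraries fall into a high and a low cluster. Together with the library factor and both scales, 18 relations were computed, and none passed after Benjamini-Hochberg adjustment. Over the 6 libraries of label C, log2 normalised counts of Lcn2 and ENSRNOG00000013280 had r = 0.549 (exact permutation p = 0.243, adjusted 0.486) and rho = 0.543 (exact permutation p = 0.297, adjusted 0.594). Without the 2 libraries farthest from the median of Lcn2, 6 h replicate 2 and 12 h replicate 2, r was -0.20, so the relation rests on them. Lcn2 and ENSRNOG00000009263 had r = 0.353 (exact permutation p = 0.463, adjusted 0.694) and rho = 0.371 (exact permutation p = 0.497, adjusted 0.725). Without the same 2 libraries r was 0.947, and in RPM, -0.091 over all 6 and 0.864 without them, so that this value turns on these libraries as well. Over the 9 libraries of label A&B the same pairs had r = 0.374 (exact permutation p = 0.318, adjusted 0.572) and r = -0.18 (exact permutation p = 0.633, adjusted 0.802), with rho of 0.300 (exact permutation p = 0.437, adjusted 0.725) and -0.15 (exact permutation p = 0.708, adjusted 0.803). Without the 2 farthest libraries, 1 h replicates 2 and 3, these r were 0.349 and -0.10. ENSRNOG00000013280 and ENSRNOG00000009263 had r = 0.218 over label C (exact permutation p = 0.668, adjusted 0.802). Over label A&B they had r = -0.49 (exact permutation p = 0.178, adjusted 0.461) and rho = -0.68 (exact permutation p = 0.0503, adjusted 0.353). This r was -0.30 without sham replicate 2 and 72 h replicate 1. In RPM over label A&B, r with Lcn2 was 0.547 for ENSRNOG00000013280 and -0.47 for ENSRNOG00000009263, and -0.50 between these 2.

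The deposited level of ENSRNOG00000009263 was lower where the library factor was higher, within both run labels. Over label A&B r was -0.81 (exact permutation p = 0.00963, adjusted 0.173) and rho -0.78 (exact permutation p = 0.0172, adjusted 0.310), and r was -0.62 without 72 h replicate 2 and sham replicate 3. Over label C r was -0.81 (exact permutation p = 0.0431, adjusted 0.258) and rho -0.71 (exact permutation p = 0.136, adjusted 0.379), and r fell to -0.30 without 12 h replicate 3 and 6 h replicate 3. ENSRNOG00000013280 had the opposite sign over label A&B, with r = 0.671 (exact permutation p = 0.0417, adjusted 0.258) and rho = 0.667 (exact permutation p = 0.0589, adjusted 0.353), and r was 0.750 without 72 h replicate 2 and sham replicate 3. Over label C its r was -0.24 (exact permutation p = 0.629, adjusted 0.802) and rho -0.14 (exact permutation p = 0.803, adjusted 0.803), and r was -0.72 without 12 h replicate 3 and 6 h replicate 3. Lcn2 had r = -0.62 over label C (exact permutation p = 0.190, adjusted 0.461) with rho = -0.77 (exact permutation p = 0.103, adjusted 0.379), and r = -0.08 over label A&B (exact permutation p = 0.841, adjusted 0.863) with rho = -0.23 (exact permutation p = 0.552, adjusted 0.725). Without the 2 farthest libraries these r were -0.86 and -0.05. Since this factor divides the reads, part of a negative relation is set by construction.

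**Figure D4:**
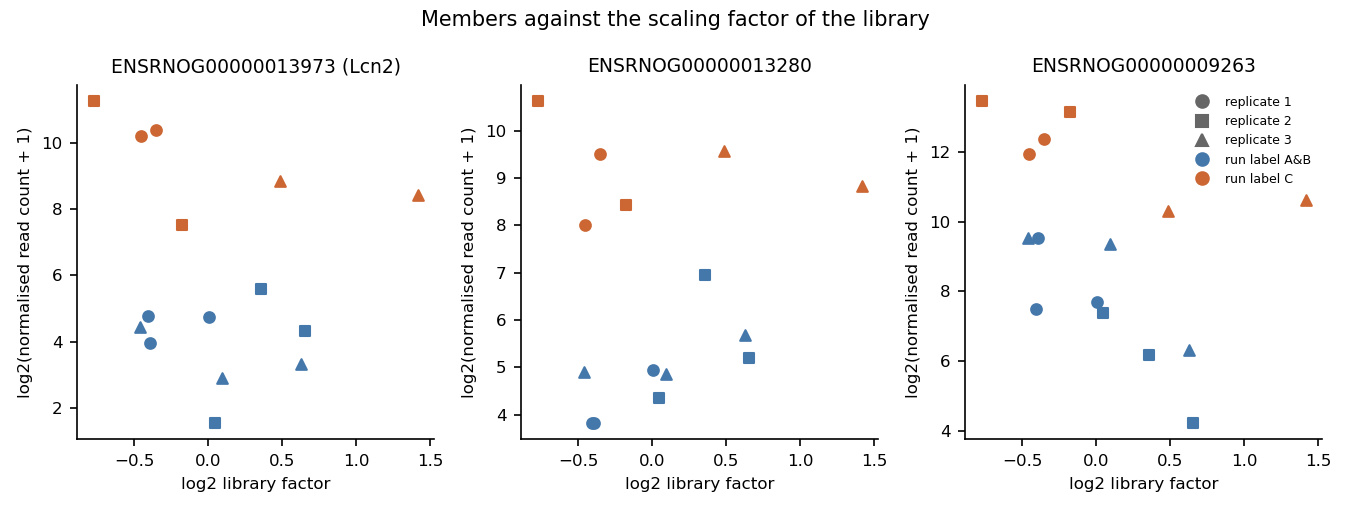
Log2 of the normalised read count plus 1 of each member against the log2 factor of the library, with marker shape for the replicate and colour for the run label. ENSRNOG00000009263 falls with the factor within both labels (r = -0.81 in each), and ENSRNOG00000013280 rises with it within label A&B (r = 0.671). None of these relations passed after adjustment, and part of a fall is set by construction, since the factor divides the reads.

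Likeness to Lcn2 was measured as Pearson's r of log2 values over the 15 libraries, as a description without a test, since libraries share run label and scaling. The median over the features tested was -0.02. ENSRNOG00000013280 ranked 2 with r = 0.910, and ENSRNOG00000009263 ranked 105 with r = 0.752. The feature most like Lcn2 was ENSRNOG00000021787 (r = 0.927), whose mean normalised read counts were 82.1 ± 15.6, 77.7 ± 10.6 and 82.5 ± 11.7 in sham, at 1 h and at 72 h, against 153 ± 39.6 at 6 h and 181 ± 50.1 at 12 h (SD, n = 3). It shared with Lcn2 the step between label C and label A&B, at a small part of the size (1.01 log2 units). Its means in sham, at 1 h and at 72 h lay close together. Ranked 3 was ENSRNOG00000012779 (r = 0.893), with 59.1 ± 8.11, 12.4 ± 10.1 and 31.5 ± 2.22 in sham, at 1 h and at 72 h, against 267 ± 25.4 at 6 h and 217 ± 38.8 at 12 h (SD, n = 3). Like Lcn2 and ENSRNOG00000013280, it had its lowest group mean at 1 h. How many features tested share this was not counted, and for those members the difference between 1 h and sham did not pass.

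Over the 6 h and 12 h libraries alone the likeness was far weaker. ENSRNOG00000021787 had r = 0.654 with Lcn2 and ranked 903, ENSRNOG00000013280 had 0.549 and ranked 1412, ENSRNOG00000009263 had 0.353 and ranked 2890, and ENSRNOG00000012779 had -0.18 and ranked 6069. The step between the groups of label C and those of label A&B, for which the members were chosen, enters the r over 15 libraries but not that within label C. Among the high libraries the members had the same order at 12 h on the deposited scale, replicates 2, 1 and 3. This is also the order of the library factors from low to high (0.584, 0.782 and 2.67). In RPM the order of ENSRNOG00000013280 at 12 h was replicates 2, 3 and 1. At 6 h the orders of the members differed on both scales.

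**Figure D5:**
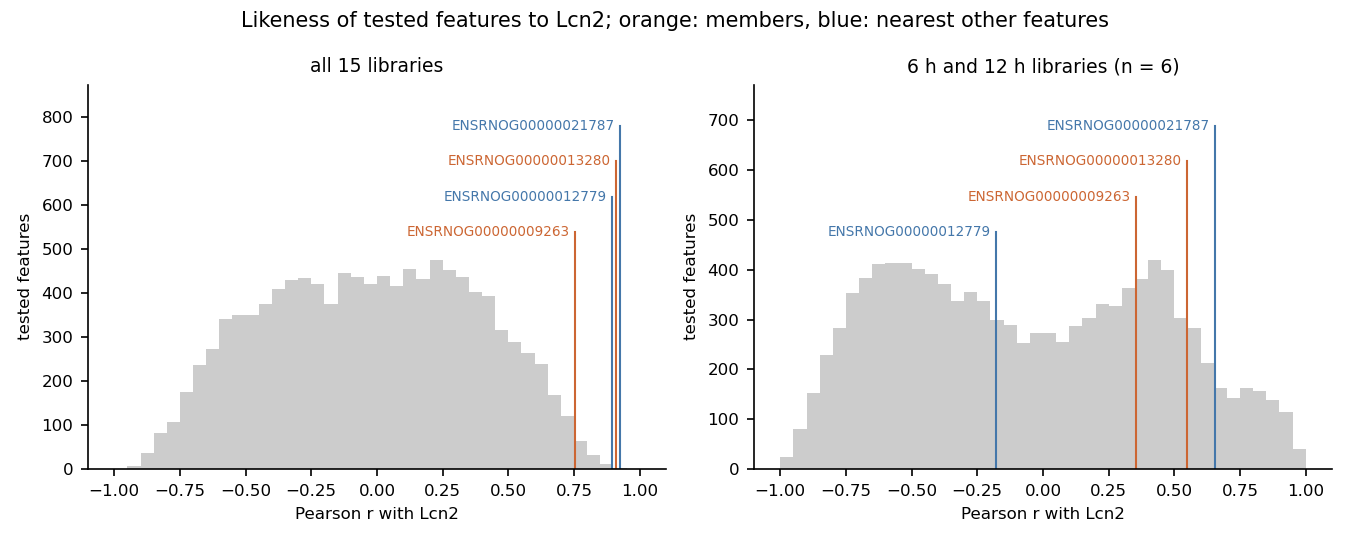
Number of features tested by Pearson's r with Lcn2, over all 15 libraries (left) and over the 6 h and 12 h libraries (right); orange lines mark the other members and blue lines the 2 most similar other features. On the left all 4 lie between 0.752 and 0.927, and on the right between -0.18 and 0.654.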

How the data were processed

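Per the labels' protocols, PAXgene blood yielded 1 ug of total RNA per NEBNext library, read from both ends (150 bp). Bowtie 0.12.2 and Rnor_6.0 are named, without their role, in the submitters' processing notes. How reads were counted, the strand setting and the annotation are not stated, so reads of overlapping or near-identical genes cannot be separated. The table deposited by the authors holds a normalised read count, a signal equal to reads divided by a factor per library. All values lay within 0.01 of whole multiples of a step. Median-of-ratios factors recomputed from these reads lay within 1.56e-08% of those deposited. In sham replicate 1 the factor is near 1, so its recovery is less well tested.

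The 11117 of 17599 features that reached 10 or more in 3 or more libraries entered a limma 3.58.1 fit (R 4.3.3, trend and robust) of log2(value + 1) over the 15 libraries. Tests were two-sided, with Benjamini-Hochberg adjustment at 0.05. The added 1 shrinks log2 differences of low features, but fits on this scale were not always the smaller. For Lcn2 the difference was larger than in edgeR between 72 h and 1 h (1.15 against 0.71). Between 72 h and sham it was smaller in size (-0.31 against -0.61). edgeR 4.0.16 and DESeq2 1.42.0 on recovered reads were alternatives, with other filters, a pseudocount of 5, the library factor as a covariate, RPM outside the 5 features that each took over 1% of reads, a replicate block, fits within run label and each library left out. The members and lists were chosen with earlier results of these data known. The gene lists by symbol were not run, because 0 IDs had a symbol. The most similar features to Lcn2 are named by the highest r over 15 libraries. Between any pair of libraries chi-square per degree of freedom was at least 25.3, so no library was counted as a repeat. Deviations from group means correlated by 0.132, 0.147 and 0.448 in the same-numbered 6 h and 12 h libraries, all over 0.1. The highest value is that of replicate 3, which also had the highest library factor in each of these groups (1.40 and 2.67). The labels state no pairing, and these values do not establish one. The main fit is unpaired, and the replicate block is an alternative.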

Additional observations from a re-analysis of the deposited data

How the results depend on the processing

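The log2 differences of the members within the high groups and within the low groups stayed short of the threshold under all alternatives run. ENSRNOG00000009263 between 72 h and 1 h turned from -0.31 to 0.58 in edgeR and 0.59 in DESeq2. Each library left out gave -1.20 to 1.46 for that difference, -0.38 to 1.13 for ENSRNOG00000009263 between 12 h and 6 h and -0.93 to 0.20 for Lcn2 between 72 h and sham. Within label C, r in RPM was -0.091 for Lcn2 and ENSRNOG00000009263 and -0.17 for ENSRNOG00000013280 and ENSRNOG00000009263, against 0.353 and 0.218 on the deposited scale, a choice made after seeing the data. The replicate block left the calls of all members as they were and moved only the count between 72 h and 1 h by over 1.5 times, from 2 to 1 features. Over all 10 pairs of groups, same-numbered deviations correlated by -0.33 to 0.448, and only 6 h with 12 h had every value over 0.1.

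Counts over all features moved most, and their cause was not tested. Between 12 h and 6 h DESeq2 gave 15 against 0. Between 72 h and 1 h the count of 2 became 7 with no filter, 4 with a pseudocount of 5, 1 in edgeR, 71 in DESeq2, 199 with the factor as covariate, 0 in RPM and 39 within run label. At 1 h against sham the 15 became 0 in edgeR, 80 in DESeq2, 47 with the covariate, 0 in RPM and 106 within run label. At 72 h against sham the 0 became 29 in DESeq2, 23 with the covariate, 1 in RPM and 2 within run label. Each library left out gave 0 to 8, 0 to 26, 0 to 101 and 0 to 15 in these 4 comparisons, the highest each time without 12 h replicate 3. Counts also moved by over 1.5 times without other libraries. Between 12 h and 6 h the count was 1 without sham replicate 2. Between 72 h and 1 h it was 0 without 1 h or 72 h replicate 3, 1 without sham replicate 2 or 3, any 6 h library or replicate 1 or 2 of 72 h, and 4, 5 and 14 without sham replicate 1, 12 h replicate 2 and 1 h replicate 1. At 1 h against sham it was 0 without sham replicate 2 or 3, 1 h replicate 3 or 6 h replicate 1 or 2, 1 without 1 h replicate 2, 3 without sham replicate 1, 7 without 72 h replicate 1, 9 without 6 h replicate 3 or 12 h replicate 1 and 24 without 12 h replicate 2. At 72 h against sham it was 3 without sham replicate 1 and 1 when replicate 1 of 1 h, or replicate 1 or 3 of 72 h, was left out. Lcn2 had only 2 to 60 reads per library in the low groups, which limits ratios there.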
